A study of Mus musculus with 4 samples.

Results

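The 37 genes described here encode the glucose transporters, the enzymes of glycolysis with their regulators, the proteins that handle lactate and pyruvate, the oxygen sensors and a set of genes known to respond to low oxygen. They were given as a list of symbols by their known roles, not by a threshold on measured values, and the 37 symbols matched 38 of the 32285 rows of the deposited feature table. The symbol Aldoa names 2 rows, of which the gene ENSMUSG00000030695 was used (62881 UMIs in the control matrix) and ENSMUSG00000114515 (14 UMIs) was not. By role the members comprised 2 glucose transporters, 12 genes of upper glycolysis, 6 of lower glycolysis, 4 of lactate and pyruvate handling, 3 of oxygen sensing and 10 hypoxia targets.

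OV2944-HM1 is a mouse ovarian cancer line. B6C3F1 mice aged 6 to 8 weeks received 1000000 of these cells under the skin. In the treated group recombinant mouse IL-27, an immune-regulating cytokine, was injected into the tumour at 100 ng per mouse from the day of implantation and every other day, while the control group received vehicle. Tumours were collected on day 14, dissociated, and enriched for CD45+ leukocytes on magnetic beads before droplet single-cell RNA sequencing from the 5′ end of transcripts. The labels list 4 entries, 2 per group, but the deposited data hold 1 matrix per group with no map from cells to entries, and the number of mice behind a matrix was not given in the sources used here. Each group therefore counts as 1 sample: no test between groups was possible, no p-value is given, and every interval is a 95% interval that covers counting error only. The tumours are transplants of a single cultured line in hosts with an intact immune system.

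After filtering, 10617 control cells (median 2408 UMIs, unique molecular identifiers that count captured RNA molecules) and 9990 IL-27 cells (median 1870.5) were kept, and 133 cell barcodes occurred in both matrices. The median mitochondrial share of UMIs was 0.356% in the control cells and 0.606% in the IL-27 cells, and the part of this difference in the results was not tested. Cells were assigned to classes by the number of marker genes with a UMI, none of them a member, and are called X-like for that reason. The classes with at least 50 cells in each matrix ranged from 51 control and 65 IL-27 fibroblast-like cells to 4594 and 3620 neutrophil-like cells. The cells that met no gate were 22.9% of control and 29.7% of IL-27 cells, and those that met gates of several lineages, 264 and 206, were left out as mixed. The samples are labelled lymphocytes and were enriched on CD45, yet neutrophil-like cells were the largest class, and 258 and 209 keratin-expressing tumour-like cells carried 13 and 10 UMIs of Ptprc, the gene of CD45. Krt8 was at 3337 and 3106 counts per 1000000 UMIs in tumour-like cells and S100a8 at 11946 and 12268 in neutrophil-like cells, the values for control and IL-27 in this order here and throughout.

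Glycolysis splits glucose into pyruvate and yields ATP without oxygen, and lactate dehydrogenase with the lactate transporters lets the flow continue when the mitochondria do not take up the pyruvate. In normal oxygen the prolyl hydroxylases, among them those encoded by Egln1 and Egln3, mark the transcription factor HIF-1α for destruction. In low oxygen HIF-1α persists, joins its partner ARNT and binds the core sequence ACGTG or GCGTG near its targets, which include many glycolytic genes as well as Egln3, Bnip3, Vegfa and Hilpda. Solid tumours are often poor in oxygen and glucose, and the neutrophils and macrophages that enter them are known to rely on glycolysis.

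The HIF core sequence was searched in the promoter windows of the members, from 250 bases before each annotated transcription start, in RefSeq sequences of build GRCm38.p6. Of the 37 members, 34 matched an entry, Ero1l under its RefSeq name Ero1a. ACGTG or GCGTG on either strand was present in 31 of these 34 (91.2%), against 41.5% of 27025 genes of the table. A site count of 2 or more was found in 22 members (64.7%), against 15.5% of all genes. Gpi1, Tpi1 and Eno2 had no match in this window. Counted by start site, 78.4% of the 51 member starts held the sequence, against 38.6% of 32851 starts and 54.0% of the 9815 other starts whose GC content lay in the middle range of the members (54.8% to 67.6%). On the reverse strand the 2 sequences read CACGT and CACGC; a palindromic CACGTG was counted once and overlapping different matches were counted apart. The 12 windows that follow come from members whose levels are described later, were chosen to span the roles, and lie outside annotated exons. They are written 5′ to 3′ in the direction of the gene, with one core sequence in capitals and the position of its first base relative to the transcription start (for Aldoa, an alternative start).

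Slc2a1, glucose transporter, chr4:119108672-119108701 (+ strand), position -61: tccccacagaacCACGCctctcagagtccc
Hk2, hexokinase, chr6:82774489-82774518 (- strand), position -52: aatgagcacatcCACGTcactgtccggggc
Aldoa, aldolase, chr7:126799363-126799392 (- strand), position -126: tgtggctcgagtCACGTcctagcggggcgg
Pgk1, phosphoglycerate kinase, chrX:106186938-106186967 (+ strand), position -150: gcgtcgtgcaggACGTGacaaatggaagta
Pgam1, phosphoglycerate mutase, chr19:41911745-41911774 (+ strand), position -114: cgctccttgcttACGTGcgctccgtgactg
Ldha, lactate dehydrogenase, chr7:46845744-46845773 (+ strand), position -48: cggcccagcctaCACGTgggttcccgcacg
Pdk1, pyruvate dehydrogenase kinase, chr2:71873134-71873163 (+ strand), position -78: ccgcctacatggGCGTGtctttaaccaggg
Hif1a, oxygen-sensitive factor, chr12:73907785-73907814 (+ strand), position -70: tggctgagagcaACGTGggctggggtgggg
Egln3, prolyl hydroxylase, chr12:54204086-54204115 (- strand), position -229: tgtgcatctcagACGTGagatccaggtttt
Bnip3, mitophagy receptor, chr7:138909597-138909626 (- strand), position -108: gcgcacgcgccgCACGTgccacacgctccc
Ankrd37, hypoxia target, chr8:46000071-46000100 (- strand), position -241: cccagcagtACGTGcctagctcggctcgca
Ddit4, stress-induced mTOR inhibitor, chr10:59951940-59951969 (- strand), position -187: agaacgttgcgaACGTGcgcccggtgccta

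The 12 windows share the core letters and little else around them. A match describes these letters only and is not a measured binding site.

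Levels are given as counts per 1000000 UMIs of a class, summed over its cells and abbreviated CPM. Because a UMI counts the 5′ end of a molecule, CPM of different genes were compared without a length correction. Among the 11 classes compared, the tumour-like cells had the highest level of 18 members in the control matrix and of 12 in the IL-27 matrix, and the neutrophil-like cells that of 7 and 6. For 28 of the 37 members the highest class was the same in both matrices.

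**Figure D1:**
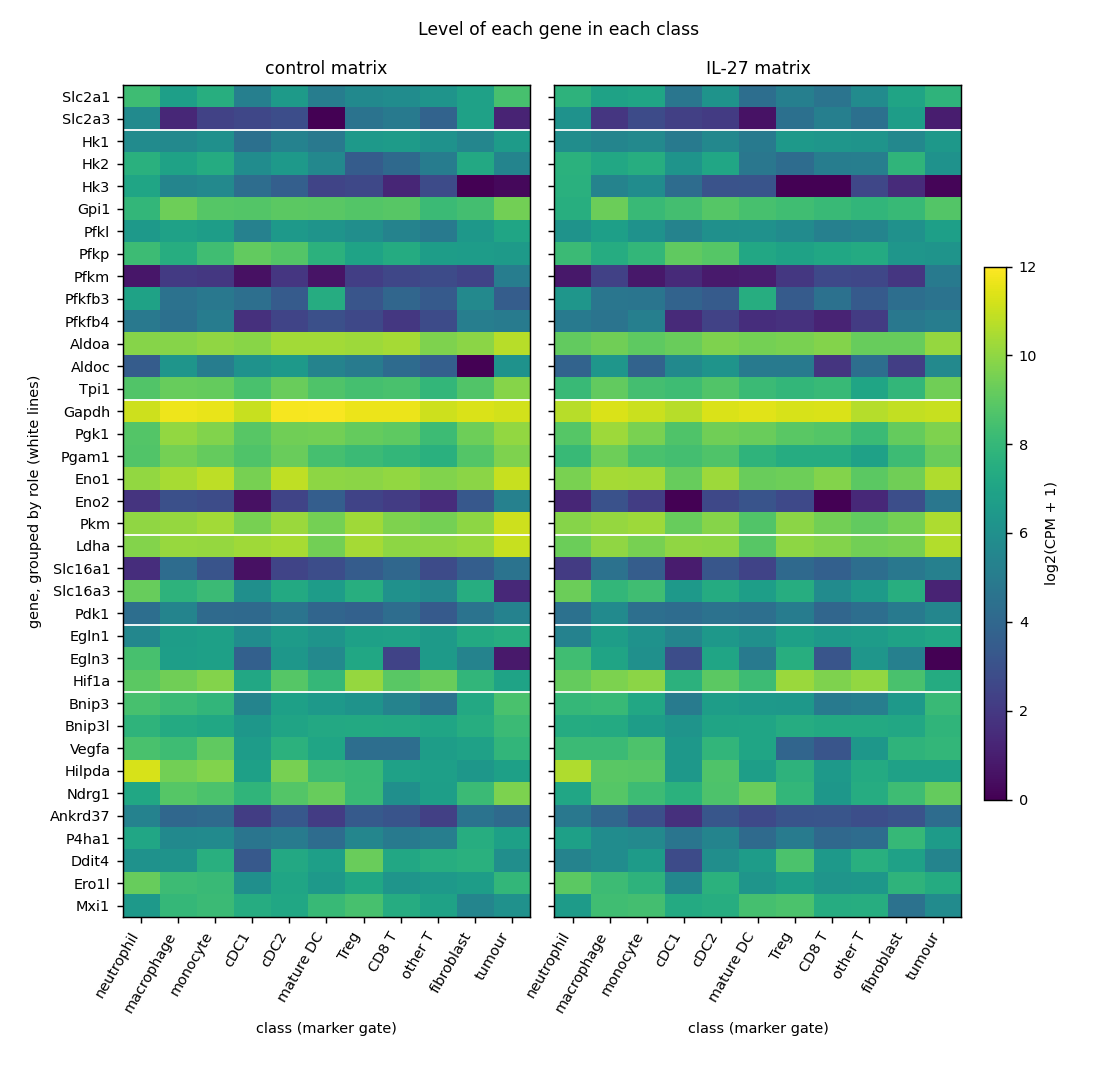
Level of each of the 37 members (rows, grouped by role with white lines between groups) in the 11 classes (columns, named without the suffix -like; cDC1 and cDC2 are the conventional type 1 and type 2 dendritic classes) of the control and IL-27 matrices, coloured by log2 of CPM plus 1. Hilpda is highest in neutrophil-like cells (2486 and 1526 CPM) and Hif1a, among these classes, in Treg-like cells (1084 and 1185 CPM).

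The glycolytic enzymes as a group were highest in the tumour-like cells, where the 24 enzymes, regulators and transporters summed to 14659 CPM (14585 to 14734) in control and 11032 (10962 to 11102) in IL-27. The neutrophil-like cells were lower, at 9447 and 7625 CPM, and the macrophage-like cells lay between at 11871 and 10822 CPM. The order was the other way round for the 10 hypoxia targets, which summed to 4519 CPM in control and 3141 CPM in IL-27 neutrophil-like cells against 2318 and 1810 CPM in tumour-like cells. This order rested on Hilpda, which accounted for 2486 of the 4519 CPM: without it the other 9 summed to 2033 and 1615 CPM in neutrophil-like cells and 2206 and 1695 CPM in tumour-like cells. Hilpda, on chr6:29272488-29275446 (GRCm38), encodes a small protein of lipid droplets that inhibits fat breakdown. Its level in neutrophil-like cells was 2.94 times that of the class next in order in control, the monocyte-like cells (845 CPM), and 3.17 times that of the macrophage-like cells (481 CPM) in IL-27.

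Other hypoxia genes had their highest level elsewhere. Vegfa, the angiogenic growth factor, was highest among the compared classes in monocyte-like cells (529 and 404 CPM). In the NK-like cells, too few to be compared (49 and 80), it reached 779 CPM (676 to 892) in control and 645 CPM (566 to 731) in IL-27. There 83.7% and 83.8% of cells had a Vegfa UMI, against 7.34% and 3.61% of CD8 T-like cells, whose median depth was higher (7705.5 and 7033 UMIs against 4315 and 3732). Thinned to 1000 UMIs per cell, the shares were 49.0% and 46.8% of NK-like cells against 0.926% and 0% of 216 and 81 CD8 T-like cells, the latter allowing up to 4.45%. Hif1a and Ddit4, the latter an inhibitor of mTOR signalling, were highest among the compared classes in Treg-like cells, Ddit4 at 619 and 384 CPM. Mxi1, a MAX-binding repressor, was also highest there, at 358 and 385 CPM. Ndrg1, a stress-response gene, was highest among the compared classes in tumour-like cells in control (806 CPM) and in mature dendritic-like cells in IL-27 (619 CPM).

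Paralogues of the same step were divided between the classes. Hexokinase catalyses the first step of glycolysis, and Hk3 made up 34.3% (32.9% to 35.7%) of hexokinase UMIs in control and 42.8% (41.1% to 44.6%) in IL-27 neutrophil-like cells, but 0.145% and 0.0759% in tumour-like cells. Hk1 led in Treg-like cells (84.8% and 83.3%), and Hk2, the inducible form, led in fibroblast-like cells (76.7% and 82.5%). Hk2 made up 30.5% (28.0% to 33.0%) of the hexokinase UMIs of control and 44.7% (42.0% to 47.4%) of those of IL-27 tumour-like cells. These intervals cover counting error only, not differences between mice or libraries. Lactate leaves or enters cells through monocarboxylate transporters. Slc16a3, the exporter, made up 99.7% and 99.5% of the Slc16a1 and Slc16a3 UMIs of neutrophil-like cells, and 6.48% and 3.35% in tumour-like cells. It also led in macrophage-like, T-cell and dendritic classes. In macrophage-like cells it had 1609 and 1147 UMIs against 135 and 105 of Slc16a1, and in Treg-like cells 252 and 301 against 14 and 28.

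The prolyl hydroxylase pair divided the same classes. Egln3 made up 88.7% and 88.9% of Egln1 and Egln3 UMIs in neutrophil-like cells, 50.6% and 55.2% in macrophage-like cells and 3.54% and 8.11% in CD8 T-like cells. In Treg-like cells Egln3 had 191 and 311 UMIs against 155 and 191 of Egln1. In conventional type 2 dendritic-like cells it had 92 and 157 against 107 and 102. In tumour-like cells Egln3 had 8 of 1790 UMIs in control and 0 of 1169 in IL-27, the latter allowing a share of up to 0.315%. Slc2a3, a high-affinity glucose transporter, made up 14.6% (13.6% to 15.7%) of Slc2a1 and Slc2a3 UMIs in control and 24.2% (22.3% to 26.1%) in IL-27 neutrophil-like cells. In fibroblast-like cells it made up 49.8% and 43.8%, but a single cell held 29.8% of its control UMIs there. Pfkp made up 93.7% and 92.7% of phosphofructokinase UMIs in conventional type 1 dendritic-like cells, and Pfkm, the muscle form, reached 12.8% and 14.3% in tumour-like cells. Of the pair of mitophagy receptors, Bnip3 made up 61.8% and 60.6% in neutrophil-like cells and 21.4% and 16.2% in CD8 T-like cells, where Bnip3l was the main form.

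**Figure D2:**
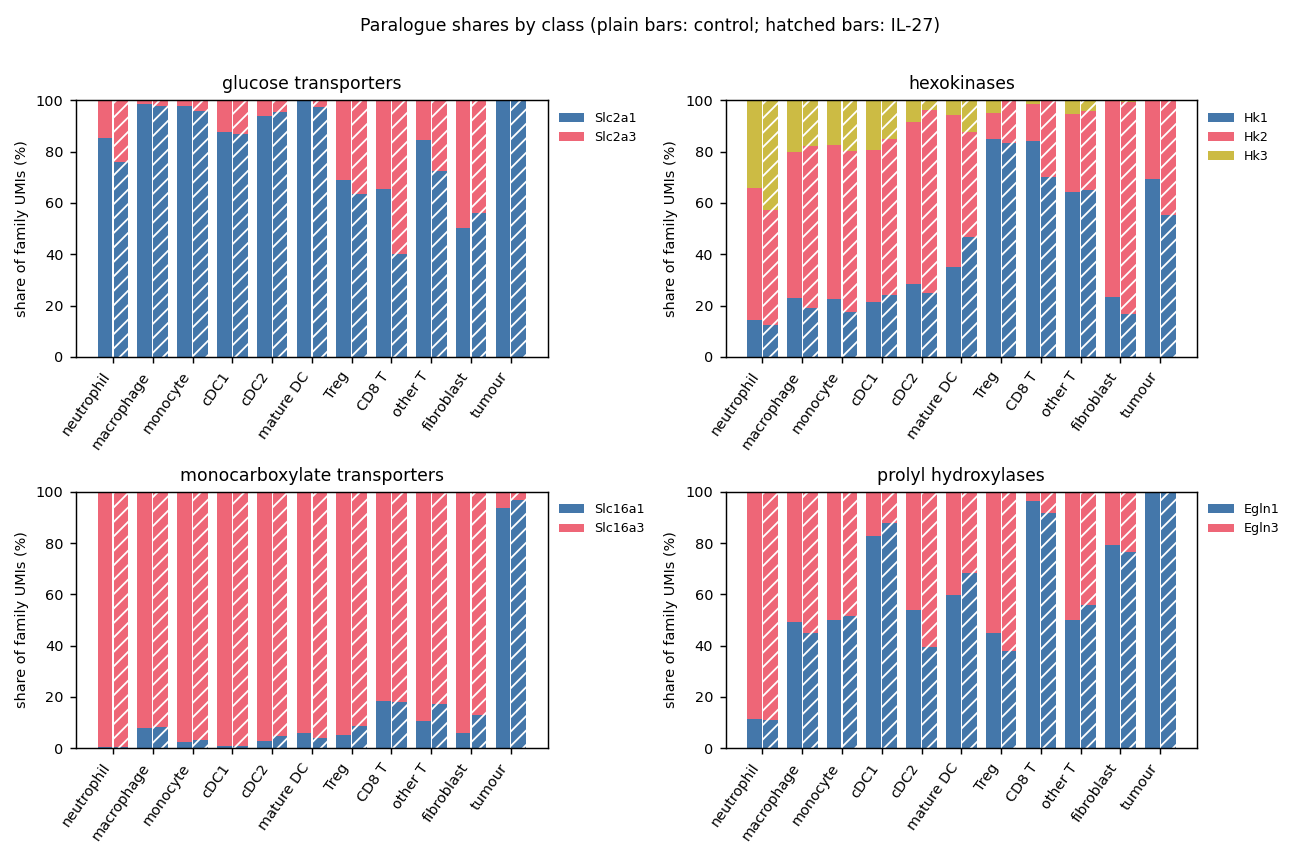
Share of family UMIs (y axis, %) held by each paralogue of 4 families in the 11 classes (x axis), with plain bars for control and hatched bars for IL-27. Slc16a3 and Egln3 lead in neutrophil-like cells and are the smaller part of their pairs in tumour-like cells. Slc16a3 also leads in macrophage-like, T-cell and dendritic classes, and Egln3 also leads in macrophage-like and Treg-like cells of both matrices.

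The comparison of IL-27 with control was made within each class as the ratio of CPM, IL-27 over control. A member was counted where the matrix with the higher CPM held at least 50 UMIs, and is called higher or lower where the ratio reached 1.5-fold. With 1 matrix per group such a ratio compares 2 matrices, and differences between mice, libraries and treatments cannot be told apart. The same rule was applied to all genes to give the background share beside each count of members. Where a class held fewer UMIs in 1 matrix, a gene higher in that matrix needed a higher CPM to be counted.

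In the neutrophil-like cells 6 of the 34 members counted were at least 1.5-fold lower in IL-27 (background of all 6786 genes counted, 5.25%) and 0 were higher (background 8.06%). They were Hilpda, the glycolytic genes Aldoa, Tpi1, Pgam1 and Pfkfb3, and Ddit4. The median log2 ratio of the members was -0.26, against 0.05 for all genes, and 23 members lay below 1. The members that were not lower included the HIF-1α gene itself, the lactate exporter and the hexokinases.

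Hilpda had 2486 CPM in control and 1526 CPM in IL-27 neutrophil-like cells (29277 and 10747 UMIs), a ratio of 0.614 (0.600 to 0.628). Aldoa, the aldolase of most tissues, had 908 and 553 CPM, a ratio of 0.609 (0.587 to 0.632). Its partner in the next step, the triose phosphate isomerase Tpi1, had 434 and 281 CPM, a ratio of 0.647 (0.614 to 0.681). These 3 genes were lower by a like factor although their levels spanned a wide range. Pgam1 had 421 and 274 CPM, a ratio of 0.651 (0.617 to 0.686). Pfkfb3, which makes the activator of phosphofructokinase, had 119 and 76.8 CPM, a ratio of 0.644 (0.582 to 0.712). Ddit4 had 68.4 and 40.6 CPM, a ratio of 0.593 (0.517 to 0.680). All 6 ratios were past 1.5-fold in each of the 10 alternative analyses that gave a value.

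Of the neighbouring enzymes, Gapdh (0.783), Eno1 (0.743) and Ldha (0.724) were lower by less than 1.5-fold, while Pgk1 was level at 1.04 (0.994 to 1.09). Eno1 has a near-identical copy, Eno1b, which was counted separately with 2922 and 2744 UMIs in the whole matrices, so the division of reads between the copies is uncertain. Glucose entry differed by transporter: Slc2a1 had 304 and 214 CPM, a ratio of 0.704 (0.663 to 0.748), and Slc2a3 had 52.0 and 68.3 CPM, a ratio of 1.31 (1.16 to 1.48). Among the members counted, Hk3 had the highest ratio, 131 against 196 CPM, which at 1.4997 (1.39 to 1.61) lay just under the limit. Hif1a had 501 and 578 CPM, a ratio of 1.15 (1.11 to 1.20), and Slc16a3 a ratio of 1.08 (1.04 to 1.12). Of the hypoxia targets, Bnip3 was at 0.691 (0.653 to 0.731), Bnip3l at 0.728, Vegfa at 0.770, Ankrd37 at 0.702 and Egln3, grouped here with the sensors, at 0.872 (0.828 to 0.918). The median log2 ratio was -0.42 over the 10 hypoxia targets, -0.35 over the 5 lower glycolytic genes counted and -0.07 over the 11 of upper glycolysis.

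Beside the level, fewer neutrophil-like cells had a Hilpda UMI. At 1000 UMIs per cell the share with at least 1 was 60.7% (59.2% to 62.2%) in control, over 4171 cells, and 48.8% (47.1% to 50.6%) in IL-27, over 3104 cells, with 423 and 516 shallower cells left out. Without thinning the shares were 70.2% and 55.9%, at median depths of 2228.5 and 1681 UMIs. The share was low in NK-like cells, at 2.04% of 49 and 5.06% of 79 thinned cells (16.3% and 21.3% unthinned, median depths 4315 and 3732). The neutrophil-like shares were far above this level in both matrices, but some other myeloid classes lay nearer to them. At 1000 UMIs the shares were 39.5% and 32.2% in macrophage-like cells. They were 34.2% and 25.5% in conventional type 2 and 6.02% and 9.68% in type 1 dendritic-like cells.

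The monocyte-like cells had the most members past the limit: 12 of 33 were at least 1.5-fold lower (background 8.29% of 6115 genes) and 0 higher (background 4.81%). The median log2 ratio was -0.46, against -0.04 for all genes, and 26 members lay below 1. They included 5 genes of upper glycolysis, Pgam1 of lower glycolysis, both prolyl hydroxylases and 4 hypoxia targets.

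Among the hypoxia genes, Ankrd37, an ankyrin-repeat protein gene, had 17.0 and 6.70 CPM, a ratio of 0.394 (0.222 to 0.668) on few UMIs. Ddit4 had 189 and 95.3 CPM, a ratio of 0.504 (0.436 to 0.581). Hilpda had 845 and 475 CPM, a ratio of 0.562 (0.526 to 0.599). The prolyl hydroxylases were lower together: Egln3 had 114 and 63.9 CPM, a ratio of 0.561 (0.468 to 0.670), and Egln1 had 113 and 68.5 CPM, a ratio of 0.604 (0.507 to 0.719). Bnip3 had 239 and 147 CPM, a ratio of 0.616 (0.547 to 0.693). Hif1a, which was 888 CPM in control, was 964 CPM in IL-27, a ratio of 1.09 (1.03 to 1.14).

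Among the glycolytic genes of monocyte-like cells, Aldoc, the brain-type aldolase, had 32.9 and 13.1 CPM, a ratio of 0.397 (0.266 to 0.578). The more abundant Aldoa had 1024 and 520 CPM, a ratio of 0.508 (0.478 to 0.540). Tpi1 had 566 and 343 CPM, a ratio of 0.607 (0.562 to 0.655), and the glucose phosphate isomerase Gpi1 had 462 and 282 CPM, a ratio of 0.610 (0.560 to 0.664). Aldoa, Aldoc and the isomerases Gpi1 and Tpi1 were thus all lower. Pgam1 (0.660, 0.613 to 0.711) and Pfkl (0.665, 0.556 to 0.795) lay at the edge of the limit, and Gapdh (0.668) just inside 1.5-fold was not called. The neutrophil genes S100a8 and S100a9 summed to 323 CPM in control and 3276 CPM in IL-27 monocyte-like cells. These were 0.936% and 10.6% of their level in neutrophil-like cells. All 7 neutrophil markers were detected in both matrices, summing to 1641 and 3902 CPM. The rise of this sum lay in S100a8 and S100a9, while the other markers together were lower in IL-27 than in control. With the 20 and 21 cells holding over 5 UMIs of S100a8 and S100a9 left out, these genes were at 26.4 and 30.9 CPM. Then 13 members were lower, among them Hilpda at 0.568, Aldoa at 0.501 and Egln3 at 0.534.

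In the macrophage-like cells 0 of 34 members were past 1.5-fold in either direction (background 2.66% higher and 3.62% lower of 7673 genes). The members divided evenly, 17 above and 17 below 1, with a median log2 ratio of -0.00 against 0.01 for all genes. The largest differences were again in Hilpda, with 693 and 481 CPM and a ratio of 0.693 (0.659 to 0.728), Aldoa at 0.740 (0.709 to 0.772) and Gapdh at 0.779 (0.762 to 0.797). Above 1 lay Pdk1, which restrains pyruvate entry to the mitochondria, at 1.27 (1.07 to 1.51), Mxi1 at 1.26 (1.17 to 1.35), Egln3 at 1.21 (1.08 to 1.35), Hk2 at 1.19 (1.07 to 1.31), Hif1a at 1.17 (1.12 to 1.22) and Pgk1 at 1.14 (1.10 to 1.18). Whether macrophage-like cells differ from monocyte-like cells in their response cannot be tested with 1 matrix per group.

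**Figure D3:**
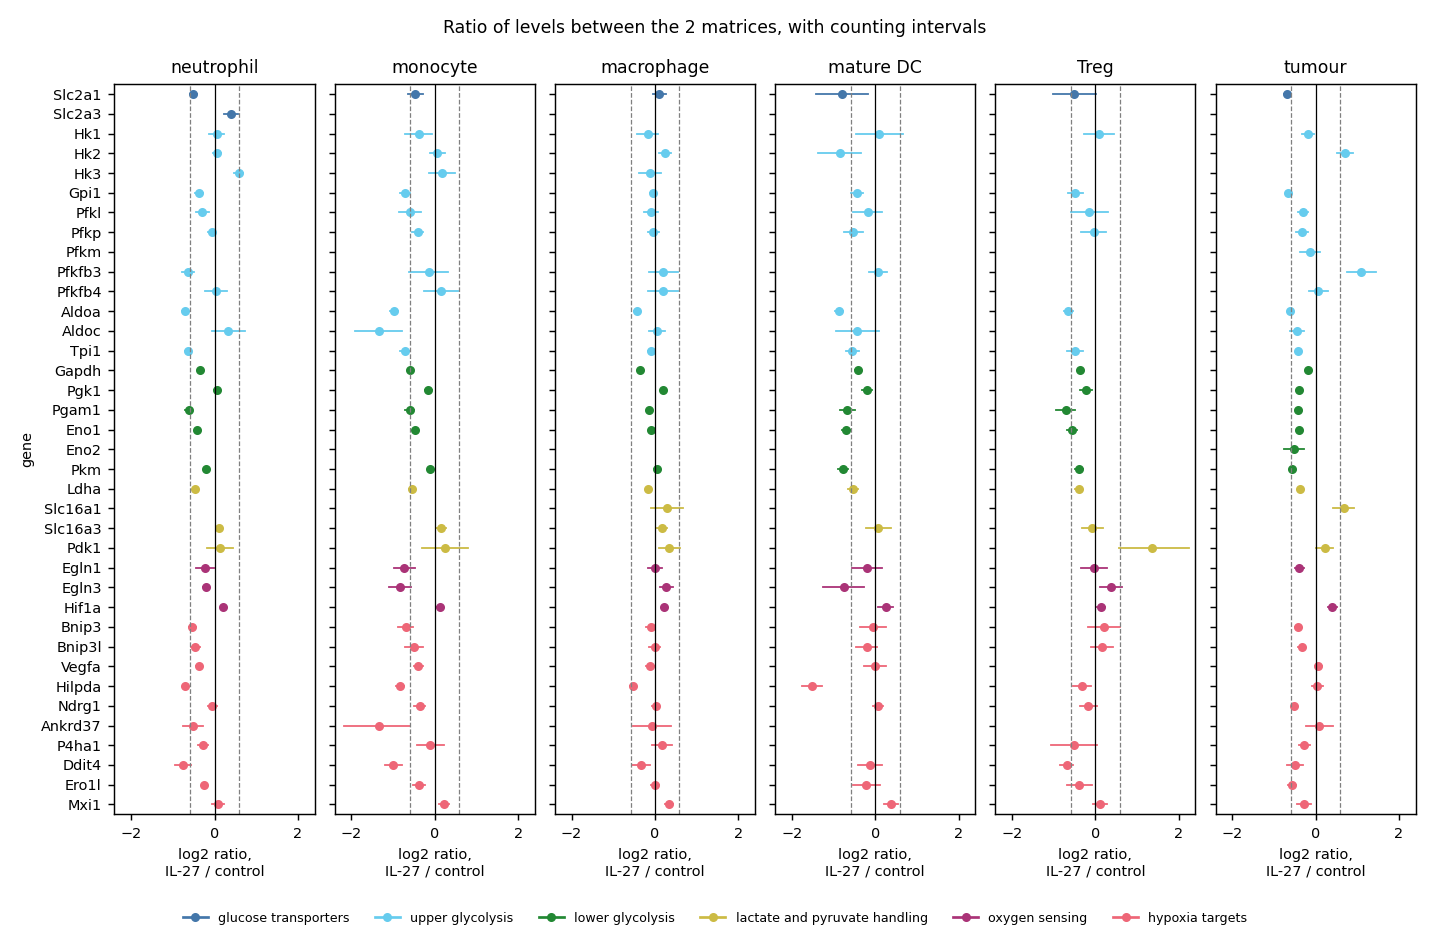
Log2 ratio of CPM, IL-27 over control (x axis), of each member counted (rows, coloured by role) in 6 classes (panels), with bars for the 95% counting interval and dashed lines at 1.5-fold in either direction. Aldoa lies left of 0 and Hif1a right of 0 in each panel, and Hilpda is lowest in mature dendritic-like cells (ratio 0.351).

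Of the dendritic classes, the mature dendritic-like cells had 8 of 28 members lower (background 7.62%) and 0 higher (background 9.52%), with a median log2 ratio of -0.32 against 0.03 for all 4800 genes counted. Hilpda had 300 and 105 CPM, a ratio of 0.351 (0.299 to 0.412). Neutrophil RNA moved with it, since S100a8 and S100a9 were at 353 and 163 CPM there. Neutrophil RNA in that amount would carry 25.4 and 8.09 CPM of Hilpda, 8.48% and 7.68% of the level measured. Of the glycolytic genes, Aldoa was at 0.548 (0.513 to 0.585), Hk2 at 0.556 (0.388 to 0.791), Slc2a1 at 0.579 (0.376 to 0.882), Pkm, the pyruvate kinase, at 0.588 (0.540 to 0.641), Eno1 at 0.621 (0.577 to 0.667) and Pgam1 at 0.631 (0.558 to 0.713). Egln3 had 49.9 and 29.6 CPM, a ratio of 0.593 (0.422 to 0.830). Pfkfb3, of which this class had the highest level among the 11, was 171 and 179 CPM, a ratio of 1.05 (0.896 to 1.22).

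The conventional type 2 dendritic-like cells, 73 and 98 in number, had 3 of 28 members higher (background 8.80%) and 4 lower (background 7.49%). Hk2 had 86.4 and 135 CPM, a ratio of 1.56 (1.21 to 2.03), which was 1.397 after thinning to 1000 UMIs and 1.346 relative to genes of like length and level. The higher ratios of Egln3 (1.59, 1.22 to 2.08) and Ero1l, an oxidase of protein folding (1.55, 1.26 to 1.92), turned to 0.579 and 0.745 when cells were thinned to 1000 UMIs. The thinned Egln3 ratio rested on 8 of 73 control and 7 of 98 IL-27 cells with a UMI. S100a8 and S100a9 were at 1.78 and 116 CPM in this class, and a single cell held 18.5% of the control and 13.4% of the IL-27 Egln3 UMIs. Lower were Ddit4, with 151 and 60.5 CPM and a ratio of 0.402 (0.301 to 0.532), Hilpda at 0.556 (0.497 to 0.623), Aldoa at 0.627 (0.578 to 0.681) and Eno1 at 0.652 (0.609 to 0.697). The conventional type 1 dendritic-like cells had 1 of 26 members lower, Aldoa at 0.659 (0.616 to 0.706), and 0 higher (backgrounds 3.93% and 6.71%). Hif1a in that class had 145 and 211 CPM, a ratio of 1.46 (1.26 to 1.68).

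In the T-cell classes the 5 lower glycolytic genes counted lay below 1 and Hif1a above it. Reference genes were lower there as well. In T-like cells without Treg, CD8 or CD4 markers the median log2 ratio was -0.42 for lower glycolysis. It was -0.35 for the housekeeping and -0.35 for the ribosomal and translation reference genes. In CD8 T-like cells these 3 medians were -0.31, -0.12 and -0.28, and in Treg-like cells -0.40, -0.29 and -0.19. The Treg-like cells had 3 of 26 members lower (background 5.84%), namely Pgam1 at 0.609 (0.522 to 0.710), Ddit4 at 0.620 (0.559 to 0.687) and Aldoa at 0.638 (0.594 to 0.687). Pdk1 was the 1 member higher (background 7.32%), with 12.4 and 32.0 CPM on 17 and 55 UMIs and a ratio of 2.58 (1.47 to 4.74). Their median log2 ratio of -0.27 stood beside 0.02 for all genes and -0.29 for the 7 housekeeping reference genes counted, so the members and these reference genes lay at a like level in this class.

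The CD8 T-like cells, 218 and 83 in number, had 5 of 24 members lower (background 12.2%) and 1 higher (background 5.35%). The median of all genes was itself lower there, at -0.14 on the log2 scale, and relative to that median 3 members were lower. Slc2a1 had 56.4 and 23.6 CPM, a ratio of 0.418 (0.240 to 0.690), and P4ha1, a collagen prolyl hydroxylase, was at 0.522 (0.256 to 0.978). Gpi1 was at 0.590 (0.506 to 0.685), Ddit4 at 0.618 (0.469 to 0.805) and Aldoa at 0.649 (0.595 to 0.707). Hif1a was the member above the limit, with 490 and 831 CPM and a ratio of 1.70 (1.54 to 1.88). In the T-like cells without Treg, CD8 or CD4 markers (85 and 133) 4 of 19 members were higher (background 13.2%) and 3 lower (background 12.1%). Hif1a had 601 and 1076 CPM there, a ratio of 1.79 (1.56 to 2.05). Slc16a3 (1.93, 1.19 to 3.22), Ndrg1 (1.62, 1.16 to 2.27) and Pfkp (1.58, 1.12 to 2.25) were the others above, and Tpi1 (0.536, 0.402 to 0.711), Pgam1 (0.589, 0.429 to 0.805) and Eno1 (0.595, 0.514 to 0.689) those below. Thinned to 1000 UMIs, Tpi1 was at 1.095, Pgam1 at 1.073 and Eno1 at 0.8124, and the Eno1 ratio was within 1.5-fold in 5 of 11 alternatives. Few thinned cells held Tpi1 (7 of 82 control and 13 of 131 IL-27) or Pgam1 (6 of 82 and 11 of 131). A single cell held 30.4% of the control Ndrg1 UMIs and 27.5% of the control Tpi1 UMIs of this small class.

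In the cells outside the immune lineages some members were higher, as also in the T-cell and conventional type 2 dendritic-like classes. The median log2 ratio of the members was below 0 in tumour-like and in fibroblast-like cells (-0.29 in the latter). The tumour-like cells had 3 of 33 members higher (background 3.58%) and 3 lower (background 4.58%), with a median log2 ratio of -0.33 against -0.04 for all 9398 genes counted. Pfkfb3 had 10.7 and 22.9 CPM, a ratio of 2.14 (1.69 to 2.73), opposite to its ratio in neutrophil-like cells. Hk2 had 41.6 and 67.8 CPM, a ratio of 1.63 (1.43 to 1.85), and Slc16a1, the transporter that takes up or releases lactate, had 22.9 and 36.5 CPM, a ratio of 1.60 (1.34 to 1.90). Thinned to 1000 UMIs, 0 members were higher, with 15 members counted, Hk2 was at 1.47 and Pfkfb3, on few UMIs, at 0.717. The 3 lower members were Slc2a1, Gpi1 and Aldoa: Slc2a1 had 361 and 225 CPM, a ratio of 0.623 (0.589 to 0.658), Gpi1 was at 0.632 (0.607 to 0.657) and Aldoa at 0.653 (0.637 to 0.670). Pkm (0.670) and Ero1l (0.673) lay just inside the limit, and all 6 genes of lower glycolysis were below 1. Hilpda, in contrast to the myeloid classes, was level at 112 and 115 CPM, a ratio of 1.03 (0.945 to 1.12), and Vegfa at 1.05 (0.988 to 1.11).

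In the fibroblast-like cells, 51 and 65 in number, 5 of 26 members were higher (background 10.2%) and 4 lower (background 9.96%). Ero1l (2.15, 1.69 to 2.76), Vegfa (1.94, 1.54 to 2.46), Hif1a (1.62, 1.37 to 1.91), Hk2 (1.56, 1.26 to 1.93) and P4ha1 (1.51, 1.24 to 1.84) were higher. A single IL-27 cell held 50.4% of the Ero1l UMIs and 22.5% of the Vegfa UMIs, and without the heaviest cell of each matrix the Ero1l ratio was 1.481. S100a8 and S100a9 were at 10.98 and 39.1 CPM in this class. Tpi1 (0.576, 0.491 to 0.675), Bnip3 (0.578, 0.440 to 0.756), Ddit4 (0.600, 0.474 to 0.759) and Aldoa (0.619, 0.558 to 0.686) were lower. The cells that met no gate had 1 of 35 members higher (background 6.01%) and 5 lower (background 5.26%), with a median log2 ratio of -0.28 against 0.05.

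Across the 11 classes, 7 glycolytic genes, Gpi1, Aldoa, Tpi1, Gapdh, Pgam1, Eno1 and Ldha, had a ratio below 1 in 11 of 11. The median log2 ratio of the housekeeping reference genes was also below 0 in each class but the macrophage-like cells (0.01). It was lowest in T-like cells without Treg, CD8 or CD4 markers (-0.35) and in fibroblast-like cells (-0.33). In tumour-like cells it was -0.14, with 7 of 8 reference genes below 1. The part of such a shift in the ratios of the 7 genes was not tested. The 7 genes differed in size: Aldoa was past 1.5-fold in 9 classes, Pgam1 in 5, Tpi1 in 4, Eno1 in 3, and Gapdh and Ldha in 0. With ratios taken relative to genes of like length and level, Tpi1 and Pgam1 were below 1 in 10 of 11 classes and the other 5 in 11 of 11. Hif1a was above 1 in 11 of 11 classes and past the limit in 3, and above 1 in 10 of 11 relative to genes of like length and level and under stricter gates. Ddit4 was below 1 in 9 of the 10 classes where it was counted and past the limit in 6. Hilpda was below 1 in 8 of 11 and past the limit in 4, all of them myeloid. Mxi1 and Slc16a3 each lay above 1 in 8 of 10 classes, but Slc16a3 in 5 of 10 and Mxi1 in 6 of 10 relative to genes of like length and level. The classes share the 2 matrices, so they are not independent observations.

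Transcript length moved with the ratios of all genes. In neutrophil-like cells the median log2 ratio ran from -0.06 in the shortest of 5 equal groups of genes to 0.22 in the longest, and in monocyte-like cells from -0.23 to 0.15. Of the genes with at least 200 CPM on average over both matrices and a transcript of up to 2500 bases in neutrophil-like cells, the 9 members had a median of -0.53 and the 322 others -0.03, and among longer transcripts the 10 members had -0.23 and the 347 others 0.12. In monocyte-like cells the short members were at -0.57 against -0.12 and the long ones at -0.38 against 0.07. In tumour-like cells the medians were -0.42 against -0.09 and -0.51 against 0.01. In macrophage-like cells short members and other short genes were alike (-0.11 and -0.12), and in mature dendritic-like cells the short members were at -0.68 against -0.12 and the 5 long ones at 0.08 against 0.05. The part of length or RNA quality in the ratios was not tested further.

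**Figure D4:**
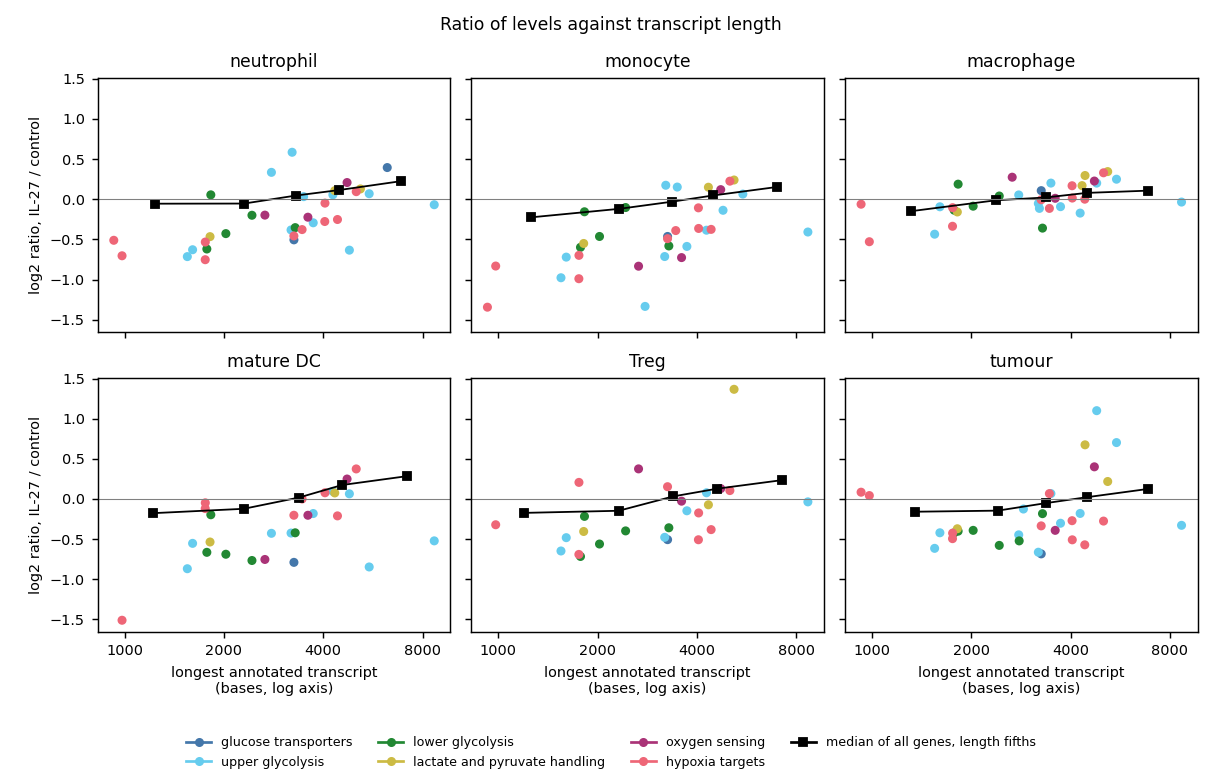
Log2 ratio of CPM, IL-27 over control (y axis), against the longest annotated transcript in bases (x axis, log scale) for the members counted in 6 classes (panels, coloured points by role), with black squares for the medians of all genes in 5 length groups. Most members lie below the line of medians in neutrophil-like and monocyte-like cells, whereas in macrophage-like cells they lie on both sides of it.

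Further genes of these pathways were taken from wider lists. Of 26 further glycolysis and pyruvate genes, 8 were counted in neutrophil-like cells, with Pgm2, a phosphoglucomutase, lower at 0.599 and a median log2 ratio of -0.09. The 12 further regulators of the HIF pathway had 8 counted and 0 called there, with a median of 0.06. Of 20 further hypoxia response genes 10 were counted in neutrophil-like cells, 0 were called, 9 lay below 1 and the median was -0.23. In monocyte-like cells 9 of these 20 were counted, with a median of -0.42. Fam162a was lower there at 0.571 and the glycogen synthase gene Gys1 at 0.249, and the histone demethylase gene Kdm3a was higher at 2.07. In macrophage-like cells 0 of 11 were called and the median was -0.10. Egln2, the remaining prolyl hydroxylase, was lower in CD8 T-like (0.380), conventional type 1 (0.639) and type 2 (0.644) dendritic-like cells.

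Within each matrix, the neutrophil-like cells were divided by the presence of a Hilpda UMI after thinning to 1000 UMIs, to see which members are found in the same cells. In control, 14 of 32 members were at least 1.5-fold higher in the 2531 cells with Hilpda than in the 1640 without (background 12.3%) and 0 were lower (background 6.82%). In IL-27, 10 of 31 were higher in the 1516 cells with Hilpda than in the 1588 without (background 5.13%) and 0 lower (background 4.05%), and 9 members were higher in both matrices. The median log2 ratio was 0.48 against 0.05 for all genes in control, and 0.34 against -0.05 in IL-27. The cells compared come from 1 sample each, so the ratios describe these cells only.

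The largest ratio was that of P4ha1, 3.36 in control and 2.67 in IL-27. Bnip3l (2.37 and 1.85), Bnip3 (2.11 and 2.00), Ero1l (2.16 and 1.97) and Egln1 (1.95 and 1.85) followed among the hypoxia genes. Of the glycolytic genes, Ldha was at 2.02 and 1.71, Tpi1 at 2.00 and 1.63, Pfkl at 1.91 and 1.82 and Gpi1 at 1.63 and 1.55. Vegfa was at 1.62 in control and 1.38 in IL-27. Some members that are high in neutrophil-like cells as a class did not follow Hilpda between cells: Egln3 was at 0.973 and 1.10, Slc16a3 at 0.846 and 1.03 and Hif1a at 0.783 and 0.881. Other features moved with the split, since S100a8 and S100a9 were at 29522 CPM in control cells with Hilpda and 44550 CPM in those without, and at 29564 and 35379 CPM in IL-27. The median depth before thinning was 2424 and 2258.5 UMIs in control and 1849 and 1760 in IL-27. Their part in the result was not tested.

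In macrophage-like cells the same division gave 2 of 24 members higher in control (background 2.10%), Ddit4 at 1.65 and Slc2a1 at 1.51, and 2 of 22 in IL-27 (background 1.39%), Vegfa at 1.62 and Slc2a1 at 1.55. Slc2a1 was the 1 member higher in both, and 0 members were lower in either matrix (backgrounds 4.74% and 6.28%).

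**Figure D5:**
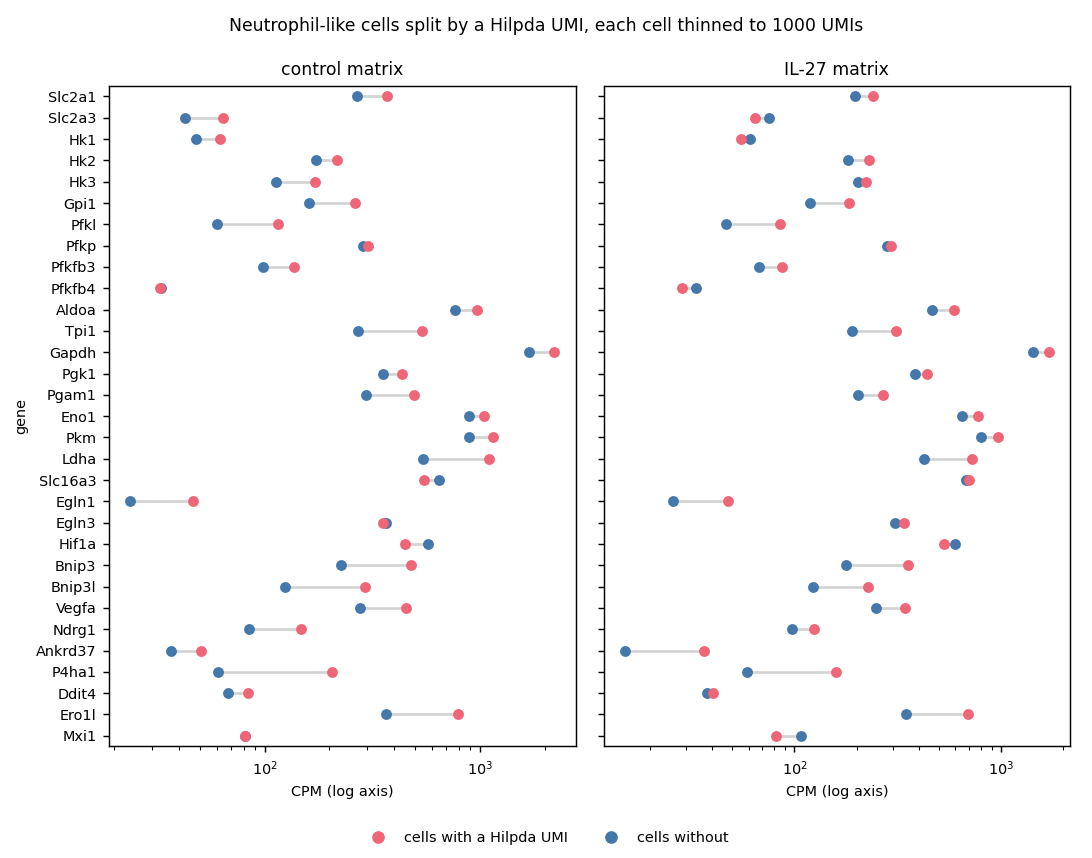
CPM (x axis, log scale) of each member counted in both matrices (rows) in neutrophil-like cells with a Hilpda UMI (red) and without (blue), at 1000 UMIs per cell, in the control and IL-27 matrices. P4ha1 has the widest gap in both (ratios 3.36 and 2.67), and Hif1a is lower in cells with Hilpda in both (0.783 and 0.881).

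The summed UMIs of the 10 hypoxia targets varied widely among neutrophil-like cells. At 1000 UMIs per cell the mean was 4.66 UMIs in control and 3.16 in IL-27, the median 3 and 2, and the 90th percentile 12 and 8. The highest cell held 54 and 31 UMIs, and 17.1% and 24.0% of cells held 0. In tumour-like cells the mean was 2.80 and 2.01 UMIs and the highest cell held 16 and 9. The mean of the 24 glycolysis genes was 9.22 and 7.22 UMIs in neutrophil-like cells and 13.8 and 10.5 in tumour-like cells, so both sets were lower per cell in IL-27 in these classes.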

How the data were processed

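Cells from tumours of vehicle-treated and IL-27-treated mice were profiled with a 5′ droplet kit per the labels' protocols. The authors deposited UMI count matrices, 1 per group, and their headers name Cell Ranger 4.0.0. The submitters' processing notes give Cell Ranger 4.0, Seurat 3.2.0 and build mm10. The counts were used as deposited. The control matrix held 10784 barcodes and 54049661 UMIs, the IL-27 matrix 10183 and 43868189. Cells with at least 500 UMIs and 200 genes and at most 10% mitochondrial UMIs were kept. A cell joined a class when it had UMIs of at least 2 to 4 of the class's marker genes. These limits were set after the data were seen. At the neutrophil gate, with a limit of 3, 1082 control cells stood at the limit and 1455 had 1 marker fewer. No doublet caller was run; cells meeting gates of several lineages were removed as mixed. Counts were summed per class and matrix and divided by the class total. CPM have exact Poisson intervals, ratios and shares exact binomial (Clopper-Pearson) intervals at 95%; a count of 0 was bounded with the interval or with 3 counts. Thinning drew 1000 UMIs per cell without replacement. Members were named where at least 50 UMIs, a 1.5-fold ratio and an interval off 1 were reached, up to 10 per class in full, and further as the most abundant of a role; others are named as values chosen after they were seen. The members and lists were chosen with earlier results of these data known. The counting was tested on simulated data. Alternatives are given in the closing section. Python 3.11.15, numpy 2.4.6, scipy 1.17.1, pandas 2.3.3 and matplotlib 3.10.9 were used. Gene positions come from GENCODE M21 on GRCm38, promoter sequences from RefSeq. The result of 1 gene of the wider lists is not reported here.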

Additional observations from a re-analysis of the deposited data

Results flagged for a closer look

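Some members lay past 1.5-fold in opposite directions in different classes, as ratios of IL-27 over control with 1 matrix per group, and in each case the difference between the classes was not tested. Hk2 was higher in conventional type 2 dendritic-like (1.564), fibroblast-like (1.556) and tumour-like cells (1.627) and lower in mature dendritic-like cells (0.5562). Its 3 higher ratios were within 1.5-fold after thinning to 1000 UMIs (1.397, 1.453 and 1.47) and relative to genes of like length and level (1.346, 1.487 and 1.483). Pfkfb3 was higher in tumour-like cells (2.143) and lower in neutrophil-like cells (0.6444), but after thinning, on few UMIs, it was at 0.7165 in tumour-like cells. Egln3 was higher in conventional type 2 dendritic-like cells (1.588) and lower in monocyte-like (0.561) and mature dendritic-like cells (0.5934). After thinning it was at 0.5794 in conventional type 2 dendritic-like cells, on 8 of 73 control and 7 of 98 IL-27 cells with a UMI. It was at 0.7312 in mature dendritic-like cells. P4ha1 was higher in fibroblast-like cells (1.509) and lower in CD8 T-like cells (0.5223). Relative to genes of like length and level both were within 1.5-fold, at 1.382 and 0.671.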

How the results depend on the processing

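Of the 66 member ratios past 1.5-fold, 31 stayed past it in every alternative that gave a value and 35 did not in at least 1. Those that stayed were 6 of 6 in neutrophil-like, 8 of 12 in monocyte-like, 5 of 8 in mature dendritic-like, 3 of 6 in CD8 T-like, 3 of 9 in fibroblast-like, 2 of 7 in conventional type 2 dendritic-like, 2 of 4 in Treg-like, 1 of 7 in other T-like, 1 of 6 in tumour-like and 0 of 1 in conventional type 1 dendritic-like cells.

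The counts of members that differed from those reported by over 1.5 times were these; the cause was not tested except where fewer or more genes counted follows from the setting. With at least 20 UMIs in place of 50, 1 neutrophil-like, 3 Treg-like and 2 CD8 T-like members were higher, and 4 conventional type 1 dendritic-like and 7 fibroblast-like members were lower. With no low-count filter, the higher counts were 1 in neutrophil-like, 1 in macrophage-like, 2 in conventional type 1 dendritic-like, 3 in mature dendritic-like, 3 in Treg-like, 3 in CD8 T-like and 9 in other T-like cells, and the lower counts 5 in conventional type 1 and 7 in type 2 dendritic-like, 8 in CD8 T-like, 5 in other T-like and 8 in fibroblast-like cells. With scaling to the median gene, 3 members were lower in CD8 T-like cells. Without the 8% of cells with the most UMIs, the higher counts were 1 in neutrophil-like, 2 in conventional type 1 and 1 in type 2 dendritic-like and 0 in Treg-like cells, and the lower counts 6 in Treg-like, 0 in other T-like and 5 in tumour-like cells. With stricter gates, 1 neutrophil-like and 2 other T-like members were higher and 5 tumour-like members lower. Without the shared barcodes, 1 neutrophil-like member was higher.

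Thinned to 1000 UMIs per cell, which left 15 members counted in tumour-like, 7 in conventional type 2 dendritic-like, 4 in other T-like and 3 in fibroblast-like cells, the higher counts were 1 in macrophage-like and other T-like and 0 in conventional type 2 dendritic-like, fibroblast-like and tumour-like cells. The lower counts were 2 in conventional type 1 dendritic-like, 4 in mature dendritic-like, 1 in Treg-like, 2 in CD8 T-like and 0 in other T-like cells. The direction turned for Egln3 (0.5794) and Ero1l (0.7449) in conventional type 2 dendritic-like cells, Tpi1 (1.095) and Pgam1 (1.073) in other T-like cells and Pfkfb3 (0.7165) in tumour-like cells. Several of these thinned ratios rested on few cells with a UMI. Egln3 had 8 of 73 control and 7 of 98 IL-27 cells, Tpi1 7 of 82 and 13 of 131, and Pgam1 6 of 82 and 11 of 131. Whether the turns exceed counting error was not tested.

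The alternatives that follow were added after seeing the data. With ratios relative to genes of like length and level, 1 conventional type 2 dendritic-like, 2 other T-like and 3 fibroblast-like members were higher, and 2 CD8 T-like, 1 other T-like and 2 fibroblast-like members lower. Without the heaviest cell of each member, 1 conventional type 1 dendritic-like and 7 other T-like members were higher. Without cells with over 5 UMIs of S100a8 and S100a9, all 60 ratios recomputed stayed within their counting intervals, and Ero1l in conventional type 2 dendritic-like cells, at 1.478, was no longer past 1.5-fold. The next alternatives were planned. Divided by Bnip3 in place of Hilpda, 24 of 30 control (background 6.25%) and 21 of 28 IL-27 (5.55%) members were higher in neutrophil-like cells with the gene. In macrophage-like cells 4 of 20 (1.32%) and 6 of 18 (1.42%) were higher. Few cells held Ankrd37, 59 IL-27 neutrophil-like and 18 IL-27 macrophage-like, which left few members counted. Divided by Ankrd37, 4 of 13 in IL-27 neutrophil-like (1.68%) and 0 of 13 in IL-27 macrophage-like cells (0.918%) were higher. Lower in cells with Ankrd37 were 1 of 22 (42.3%) and 2 of 13 (50.5%) members in control and IL-27 neutrophil-like cells. In macrophage-like cells 3 of 12 (59.4%) and 7 of 13 (64%) were lower. The 2 sides of this split were very unequal, 59 against 3045 cells in IL-27 neutrophil-like cells. A gene higher in the few cells with Ankrd37 thus needed a far higher CPM to be counted than a gene lower in them. The shares of the Ankrd37 split depend on this rule, and no conclusion is drawn from them.

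No paired analysis was possible because each group is 1 matrix with no map from cells to the labelled entries, and for the same reason no replicate was left out. Depth limits the small classes most: members under 50 UMIs were not counted, and 1 cell held up to 50.4% of a member's UMIs in fibroblast-like cells.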
